A study of Mus musculus with 6 samples.

Results

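The TNF superfamily of cytokines and their receptors was followed in the liver transcriptome. Genes were taken by symbol, namely the numbered *Tnfsf* and *Tnfrsf* genes together with *Tnf*, *Lta*, *Ltb*, *Ltbr*, *Fas*, *Fasl*, *Cd27*, *Cd40*, *Cd40lg*, *Cd70*, *Eda2r* and *Ngfrap1*, which the current annotation calls *Bex3*. This gave 43 of the 49671 gene IDs in the count table, made up of 17 ligands, 25 receptors and *Bex3*, whose product binds the neurotrophin receptor and is neither. RNA-seq had been run on livers of 6 male C57BL/6J-background mice, 3 SHMT2 fl/fl and 3 SHMT2 HKO, which the labels call WT and KO. Both groups carry the floxed *Shmt2* allele, and in SHMT2 HKO mice Albumin-Cre is used to delete it in hepatocytes. The authors propose that expression in the non-parenchymal liver cells is left intact. All mice, weaned at 3 weeks of age, received the AMLN diet (high fat, cholesterol and fructose) from the age of 4 weeks for 18 weeks and were 22 weeks old at collection. No group on a chow diet was among the RNA-seq samples, so the comparison is of genotypes on 1 diet.

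Ligands of the TNF superfamily are mostly trimeric membrane proteins, some of which are shed by proteases, and they act by clustering their receptors. Receptors with a death domain, such as TNFR1, Fas and DR5, can lead to caspase activation, while most others recruit TRAF adaptors and activate NF-kB. In the liver the family is known for control of hepatocyte death, of liver regeneration and of the organisation of lymphoid cells, and many members are made by immune cells rather than by hepatocytes.

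Libraries held 23090837 to 34089722 counts on genes. *Shmt2* itself was at 94.6, 109 and 93.9 CPM (counts scaled to library size, with library sizes adjusted by TMM) in SHMT2 fl/fl livers and at 24.9, 28.3 and 19.3 CPM in SHMT2 HKO livers, which fits the labels (p = 0.1 by a two-sided exact permutation test, the lowest p possible with 3 against 3). Mitochondrial transcripts took 3.25% to 3.63% of counts in SHMT2 fl/fl and 4.30% to 4.97% in SHMT2 HKO libraries, and their part in the results below was not tested. SHMT2 HKO mouse 3 lay nearer to the controls than the other SHMT2 HKO mice on the first principal component of all genes, at 35.0 against 66.5 and 68.8, and SHMT2 HKO mouse 1 stood apart on the second, at -60.6.

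Most tested members had a lower level in SHMT2 HKO livers. In bulk liver RNA, fewer cells of a type and less RNA per cell cannot be told apart. Together the 43 genes took 0.0599%, 0.0535% and 0.0599% of all counts on genes in SHMT2 fl/fl mice 1 to 3 and 0.0386%, 0.0349% and 0.0422% in SHMT2 HKO mice 1 to 3. These are shares of raw counts, without the TMM scaling used in the tests. Without TMM scaling the median log2 fold change of all genes tested was itself -0.40. Of the 34 members with enough counts to be tested, 14 fell and 2 rose at an adjusted p under 0.05 (edgeR quasi-likelihood test, Benjamini-Hochberg adjustment over 16089 genes). Among all genes tested, 16.5% were called lower and 12.5% higher, 29% in all, against 41.2% and 5.88% of the tested members. The median log2 fold change, SHMT2 HKO minus SHMT2 fl/fl, was -0.77 over the tested members and 0.027 over all genes tested. All 10 tested ligands had a negative fold change, with a median of -1.29, and 6 of them were called lower. The count filter can be passed through the libraries of either group alone. *Fasl*, *Tnfsf8* and *Tnfsf9* had under 10 counts in every SHMT2 HKO library and passed it through the SHMT2 fl/fl libraries. This favoured a negative sign for them, and the 7 ligands too low to test are not in this median. Of 23 tested receptors, 17 had a negative and 6 a positive fold change, with a median of -0.62, and 7 were called lower and 2 higher. The methods of the study name a looser cutoff, an unadjusted p under 0.05 with an adjusted p under 0.25. At this cutoff 21 of the 34 tested members were called lower and 2 of the 34 higher. Of all genes tested, 21.8% were called lower and 19.5% higher. In 22 of the 34 tested members every SHMT2 HKO value lay below every SHMT2 fl/fl value. In 2 of the 34 every value lay above, and in 10 the groups overlapped. Of all genes tested, 25% lay below and 21.9% above without overlap.

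These counts depended on scaling and on single libraries. Without TMM scaling 23 members were called lower and 1 higher, with all genes at 4923 lower and 539 higher instead of 2651 and 2012. Leaving out SHMT2 fl/fl mouse 1, 2 or 3 left 7, 7 and 6 members called lower, and leaving out SHMT2 HKO mouse 2 left 9. The calls of *Ltb*, *Tnfsf13b*, *Cd40*, *Tnfrsf13b*, *Tnfrsf11b* and *Bex3* held in every alternative in which the gene was tested, 6 of the 16 calls.

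**Figure D1:**
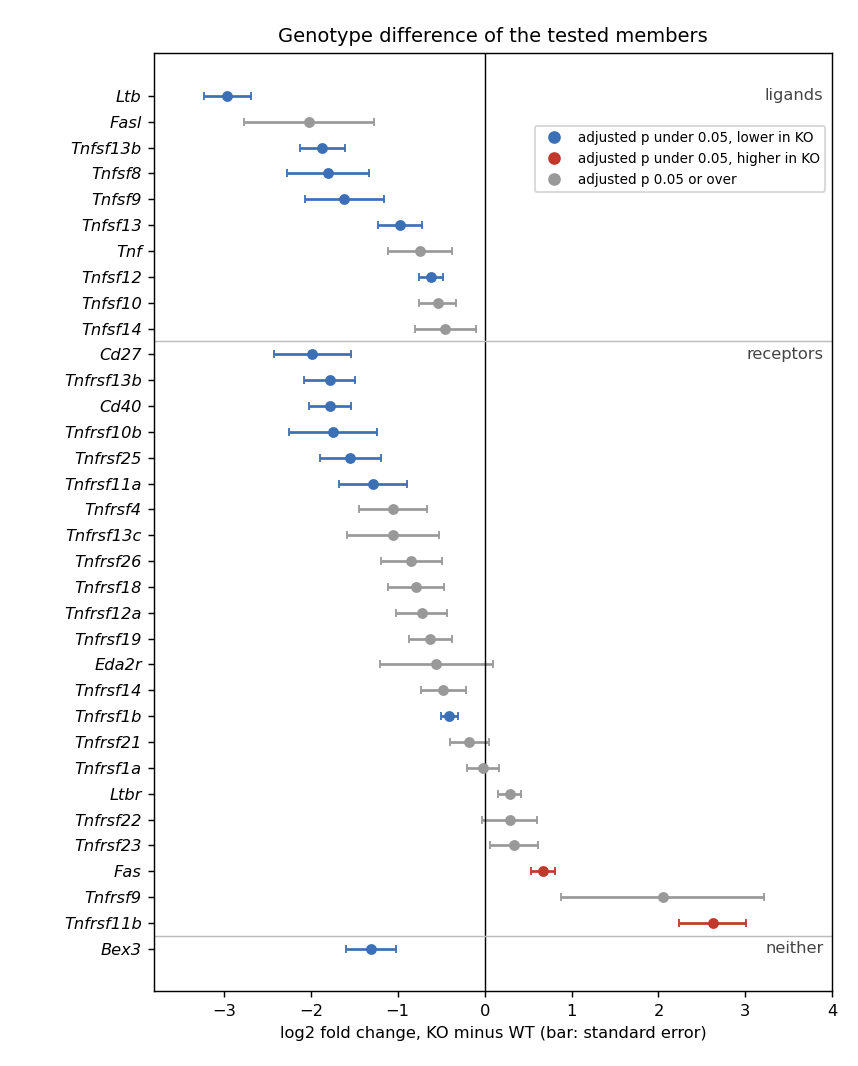
Log2 fold change (SHMT2 HKO minus SHMT2 fl/fl, x axis, bars are the standard error) of each of the 34 tested members, named on the y axis and coloured by call. All 10 ligands lie left of 0, and *Tnfrsf11b* at 2.62 and *Fas* at 0.67 are the 2 members called higher.

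To compare levels between genes, CPM were divided by exon length in kb. By this measure the most abundant members in SHMT2 fl/fl livers were *Tnfrsf1a* at 53.1 ± 8.80 CPM per kb (SD, n = 3) and *Ltbr* at 50.6 ± 3.73, which did not differ beyond their spread. *Tnfrsf12a* followed at 17.5 ± 1.57, then *Tnfrsf1b* at 14.2 ± 0.393 and *Tnfsf12* at 14.1 ± 1.11, which again lay within their spread of each other, and *Ltb* at 10.3 ± 2.71. In SHMT2 HKO livers *Ltbr* at 61.7 ± 6.86 and *Tnfrsf1a* at 52.4 ± 10.8 CPM per kb were still at the top and within their spread. *Fas*, the 8th of 43 in SHMT2 fl/fl livers at 7.42 ± 0.719, was 3rd in SHMT2 HKO livers at 11.8 ± 1.31, within the spread of *Tnfrsf1b* at 10.7 ± 0.484 and *Tnfrsf12a* at 10.6 ± 5.22, while *Ltb* went from 6th to 12th and *Tnfrsf11b* from 36th to 15th. The order below 1 CPM per kb rests on few counts, and neighbours there did not differ beyond their spread in most cases.

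**Figure D2:**
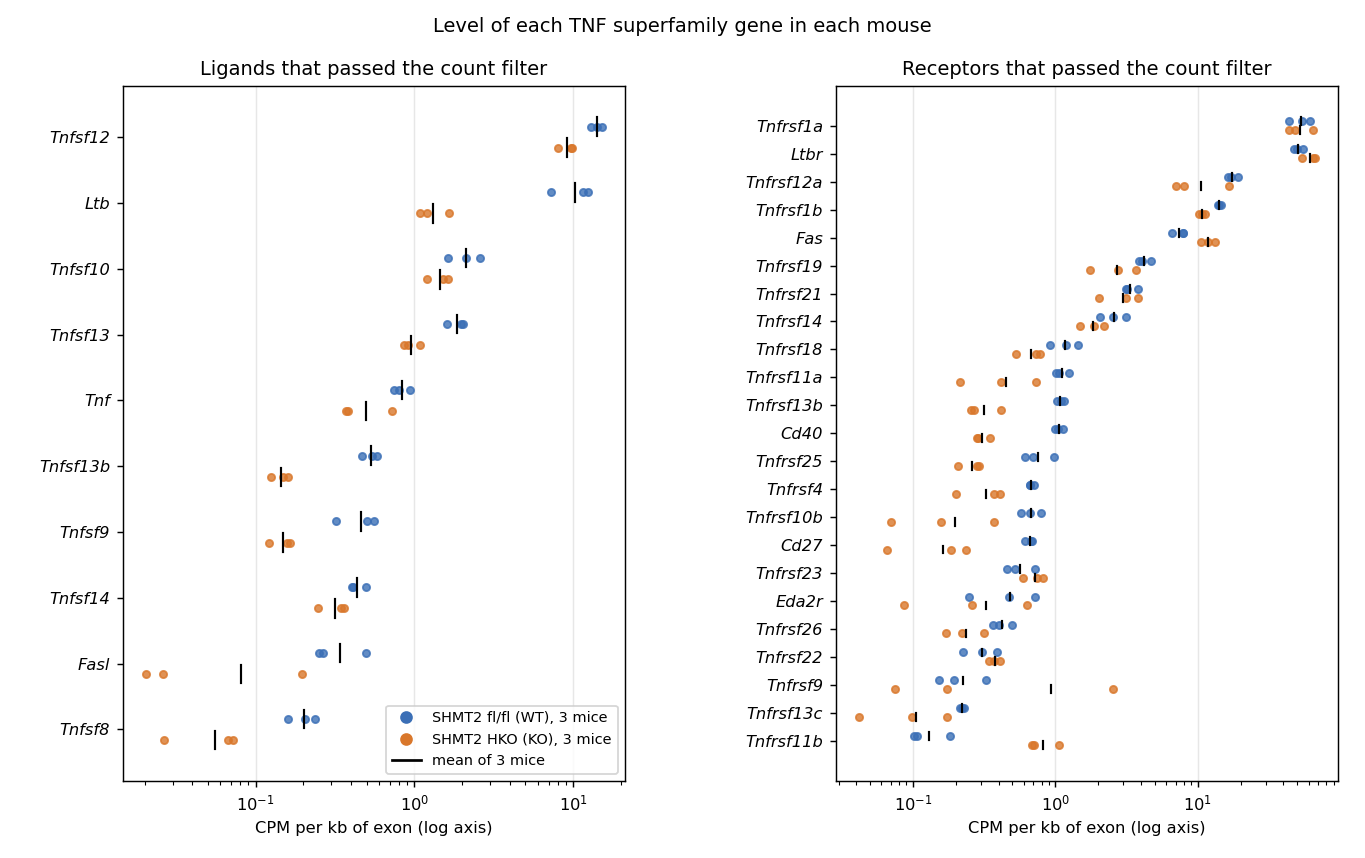
Level of each tested member in each mouse, in CPM per kb of exon on a log axis, with ligands and receptors in separate panels. *Tnfrsf1a* and *Ltbr* lie above 40 CPM per kb in every mouse with overlapping groups, whereas the groups of *Ltb* and *Tnfrsf11b* are far apart.

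*Ltb* showed the largest decrease of any tested member. It encodes lymphotoxin beta, which anchors lymphotoxin alpha at the surface of lymphocytes and signals through the lymphotoxin beta receptor. It was counted 449, 496 and 665 times in SHMT2 fl/fl mice 1 to 3 and 39, 36 and 64 times in SHMT2 HKO mice 1 to 3. In CPM these were 11, 18.7 and 17.4 against 1.66, 1.82 and 2.52, means of 15.7 ± 4.11 and 2.0 ± 0.458 (SD, n = 3). The groups were far apart, and the level was 7.78-fold lower (log2 fold change -2.96, SE 0.27, adjusted p = 0.000849). *Tnf*, the founding member and a product of activated macrophages and T cells, lies next to *Ltb* and gave another pattern. Its values were 1.54, 1.32 and 1.23 CPM in SHMT2 fl/fl mice and 1.19, 0.608 and 0.630 CPM in SHMT2 HKO mice. The groups did not overlap, but SHMT2 HKO mouse 1 came close to the lowest control. The difference did not pass the test (log2 fold change -0.75, SE 0.37, adjusted p = 0.167). It did so without SHMT2 HKO mouse 1 (-1.13, adjusted p = 0.0402) and without TMM scaling (-1.19, adjusted p = 0.0397). *Lta* was counted 9, 4 and 7 times against 0, 2 and 3 times and was not tested.

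*Ltb*, *Tnf* and *Lta* lie within 10.9 kb of chromosome 17 (chr17:35194439-35205351, GRCm38), *Ltb* on the forward and the others on the reverse strand. The stretches upstream of *Ltb* and *Tnf* are shown because these neighbours differed in the size of their change. They are RefSeq promoter windows (GRCm38.p6), up to 250 bases before the RefSeq start, and the *Ltb* window ends just before the annotated transcript. Of the 43 members 33 had a window in this set.
Ltb, chr17:35194257-35194438, forward strand: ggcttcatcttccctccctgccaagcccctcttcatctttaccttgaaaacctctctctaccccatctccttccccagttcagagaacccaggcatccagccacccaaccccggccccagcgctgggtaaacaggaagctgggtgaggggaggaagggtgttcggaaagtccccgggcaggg
Tnf, chr17:35202008-35202257, reverse strand: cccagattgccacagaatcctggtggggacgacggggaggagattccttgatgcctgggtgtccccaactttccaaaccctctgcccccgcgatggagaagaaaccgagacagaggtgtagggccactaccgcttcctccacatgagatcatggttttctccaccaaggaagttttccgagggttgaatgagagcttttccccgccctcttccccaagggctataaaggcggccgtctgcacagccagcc

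The receptors of these ligands were among the most abundant of the family, and of *Tnfrsf1a*, *Ltbr* and *Tnfrsf1b* the last was called. *Tnfrsf1a*, which encodes the death domain receptor TNFR1, was at 140, 114 and 159 CPM in SHMT2 fl/fl and 167, 126 and 114 CPM in SHMT2 HKO mice. The groups overlapped (log2 fold change -0.019, SE 0.19, adjusted p = 0.948). *Ltbr*, the receptor of lymphotoxin, was at 117, 112 and 129 against 157, 153 and 127 CPM, and the lowest SHMT2 HKO value lay inside the control range. Its log2 fold change was 0.29 (SE 0.13, adjusted p = 0.140), and turned to -0.15 without TMM scaling and to -0.49 with scaling to the ERCC spike-in RNAs. *Tnfrsf1b*, which encodes TNFR2, a TNF receptor without a death domain found mainly on immune and endothelial cells, was at 55.8, 53.7 and 53.0 CPM against 40.6, 39.2 and 42.9 CPM. The groups were tight and separate, and the level was 1.32-fold lower (log2 fold change -0.41, SE 0.10, adjusted p = 0.0206). The call was lost without any 1 of the SHMT2 fl/fl mice or without SHMT2 HKO mouse 2, at adjusted p-values of 0.0701 to 0.0758, and with ERCC scaling at 0.120. *Tnfsf14*, which encodes LIGHT, the other ligand of the lymphotoxin beta receptor, and its receptor gene *Tnfrsf14* had log2 fold changes of -0.45 and -0.48 and were not called (adjusted p = 0.372 and 0.207).

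In the BAFF and APRIL system both ligands and 1 receptor fell. BAFF and APRIL are survival factors of B cells and plasma cells made chiefly by myeloid cells, and bind TACI and BCMA, while BAFF alone binds the BAFF receptor. *Tnfsf13b* (BAFF, chr8:10006467-10039072) was counted 152, 85 and 154 times in SHMT2 fl/fl and 24, 17 and 28 times in SHMT2 HKO mice, or 3.72, 3.20 and 4.02 against 1.02, 0.861 and 1.10 CPM. All SHMT2 HKO values lay well below the controls (3.65-fold lower, log2 fold change -1.87, SE 0.25, adjusted p = 0.00217). *Tnfrsf13b* (TACI, chr11:61126755-61149372) was at 3.08, 2.90 and 3.26 CPM in SHMT2 fl/fl and 0.722, 0.760 and 1.18 CPM in SHMT2 HKO mice. The groups were as clearly separate as for BAFF, with a 3.44-fold lower level (log2 fold change -1.78, SE 0.29, adjusted p = 0.00410). *Tnfsf13* (APRIL) was at 3.33, 3.20 and 2.64 against 1.4, 1.77 and 1.5 CPM, 1.96-fold lower without overlap (log2 fold change -0.97, SE 0.25, adjusted p = 0.0220). Its call was lost without any 1 of the SHMT2 fl/fl mice (adjusted p = 0.0593 to 0.0860). Exons of *Tnfsf13* share 983 bases with the read-through gene *Tnfsfm13*, and those of *Tnfsf12* share 731, so the split of reads between these genes is uncertain. *Tnfrsf13c*, which encodes the BAFF receptor of B cells, was counted 18, 12 and 18 times against 2, 4 and 9 times, without overlap, and did not pass the test (log2 fold change -1.05, SE 0.53, adjusted p = 0.174, and -1.69 and 0.0733 without SHMT2 HKO mouse 3). *Tnfrsf17* (BCMA) had 1 count in all 6 libraries.

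Receptors and ligands through which lymphocytes and antigen-presenting cells stimulate each other also fell in part. *Cd40* (chr2:165055627-165072948), whose product on B cells, dendritic cells and macrophages receives help from T cells, was at 3.55, 3.39 and 3.84 CPM in SHMT2 fl/fl and 0.976, 0.962 and 1.18 CPM in SHMT2 HKO mice. The spread within each group was small beside the gap, and the level was 3.44-fold lower (log2 fold change -1.78, SE 0.25, adjusted p = 0.00224). Its ligand gene *Cd40lg* was counted 17, 5 and 5 times against 0, 1 and 1 times and was not tested. *Cd27*, a co-stimulatory receptor of T cells, was counted 65, 42 and 55 times against 13, 3 and 11 times, at 1.59, 1.58 and 1.44 against 0.552, 0.152 and 0.433 CPM. It was 3.95-fold lower (log2 fold change -1.98, SE 0.44, adjusted p = 0.0130), a call that narrowly failed without SHMT2 fl/fl mouse 1 or 3 (adjusted p = 0.0510 and 0.0503). The gene of its ligand CD70 had 2 counts in 1 control library and none elsewhere.

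*Tnfrsf25*, which encodes DR3, a death domain receptor of T cells, was at 1.59, 2.22 and 1.38 CPM in SHMT2 fl/fl mice and 0.637, 0.658 and 0.472 CPM in SHMT2 HKO mice. It was 2.92-fold lower without overlap (log2 fold change -1.55, SE 0.35, adjusted p = 0.0137, and 0.0630 without SHMT2 fl/fl mouse 2). Its ligand gene *Tnfsf15* had between 0 and 4 counts in each library. *Tnfsf8* (CD30 ligand) was counted 25, 24 and 30 times against 6, 2 and 7 times, 3.49-fold lower without overlap (log2 fold change -1.80, SE 0.47, adjusted p = 0.0231). *Tnfsf9* (4-1BB ligand) was counted 17, 19 and 25 times against 5, 4 and 4 times, 3.06-fold lower (log2 fold change -1.61, SE 0.46, adjusted p = 0.0307). Both ligands are low in liver and passed the count filter through the SHMT2 fl/fl libraries, and their calls were not stable. Without any 1 of the SHMT2 fl/fl mice or without SHMT2 HKO mouse 2 the adjusted p was 0.0541 to 0.0855 for *Tnfsf8* and 0.0504 to 0.114 for *Tnfsf9*, and *Tnfsf9* also failed without SHMT2 HKO mouse 3 (0.0726) and with DESeq2 (0.0669).

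*Tnfrsf9*, which encodes the co-stimulatory receptor 4-1BB and is induced on activated T cells, rested on 1 animal. It was counted 17, 14 and 34 times in SHMT2 fl/fl mice and 163, 4 and 12 times in SHMT2 HKO mice, 6.92, 0.203 and 0.472 CPM in the latter. SHMT2 HKO mouse 1 alone was above all controls. The log2 fold change was 2.05 (SE 1.17, adjusted p = 0.231) and turned to -0.81 (adjusted p = 0.321) without this mouse. *Tnfrsf8* (CD30) had between 0 and 6 counts in each library. The OX40 gene *Tnfrsf4* and the GITR gene *Tnfrsf18*, neighbours on chromosome 4 that mark regulatory and activated T cells, had log2 fold changes of -1.05 and -0.79 without overlap of the groups and were not called (adjusted p = 0.0741 and 0.102).

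Among death receptors *Fas* and *Tnfrsf10b* moved in opposite directions. *Fas* encodes the receptor through which Fas ligand kills hepatocytes. It was at 16.2, 13.6 and 16.1 CPM in SHMT2 fl/fl mice and at 24.1, 27.2 and 21.8 CPM in SHMT2 HKO mice. All SHMT2 HKO livers were higher, and the mean rose 1.59-fold, from 15.3 ± 1.48 to 24.4 ± 2.70 CPM (log2 fold change 0.67, SE 0.14, adjusted p = 0.00951), but it was 0.24 and not called without TMM scaling (adjusted p = 0.249) and turned to -0.096 with ERCC scaling (adjusted p = 0.896). *Fasl*, the ligand gene, made by cytotoxic T cells and NK cells, was counted 21, 13 and 37 times against 9, 1 and 1 times. SHMT2 HKO mouse 1 was highest of its group at 0.382 CPM, below the lowest control at 0.489 CPM. The log2 fold change was -2.02 (SE 0.75, adjusted p = 0.0763), and -3.78 without this mouse (adjusted p = 0.00771). It was also called without TMM scaling, with ERCC scaling and by limma-voom, at adjusted p-values of 0.0313, 0.00148 and 0.0382.

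*Fas* lies on chromosome 19 (chr19:34290666-34327772), and the RefSeq window before its start is shown because *Fas* is the more abundant of the members called higher.
Fas, chr19:34290409-34290658, forward strand: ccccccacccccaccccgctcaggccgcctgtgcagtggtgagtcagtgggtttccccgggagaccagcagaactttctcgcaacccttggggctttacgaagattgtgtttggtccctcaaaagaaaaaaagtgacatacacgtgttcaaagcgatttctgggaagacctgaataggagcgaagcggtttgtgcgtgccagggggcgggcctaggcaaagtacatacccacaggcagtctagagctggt

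*Tnfrsf10b*, which encodes DR5, the death receptor of TRAIL in mice, was at 4.31, 3.61 and 3.11 CPM in SHMT2 fl/fl mice and 0.382, 0.861 and 2.01 CPM in SHMT2 HKO mice. The groups did not overlap, but the SHMT2 HKO values were spread widely, with mouse 1 lowest and mouse 3 highest. The level was 3.35-fold lower (log2 fold change -1.75, SE 0.51, adjusted p = 0.0336), and the call was lost without any 1 of the SHMT2 fl/fl mice or without SHMT2 HKO mouse 2 (adjusted p = 0.0791 to 0.110). Leaving out SHMT2 HKO mouse 3 moved it to -2.60 on the log2 scale (adjusted p = 0.00332). *Tnfsf10* (TRAIL) was at 13.6, 8.58 and 11.1 against 8.02, 8.61 and 6.34 CPM, with 1 SHMT2 HKO value above the lowest control (log2 fold change -0.54, SE 0.21, adjusted p = 0.0896, and 0.0116 without TMM scaling). The decoy TRAIL receptor genes *Tnfrsf22* and *Tnfrsf23* lie side by side on chromosome 7 and had positive log2 fold changes of 0.29 and 0.34 with overlapping groups (adjusted p = 0.528 and 0.398). *Tnfrsf26*, the third gene of this cluster, had -0.84 without overlap (adjusted p = 0.109). *Tnfrsf21* (DR6) was at 13.8 ± 1.48 and 12.3 ± 3.69 CPM (SD, n = 3, adjusted p = 0.599).

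*Tnfrsf11b* showed the largest rise. It encodes osteoprotegerin, a secreted receptor without a membrane anchor that holds RANK ligand and TRAIL away from their signalling receptors. It was counted 21, 8 and 11 times in SHMT2 fl/fl mice and 47, 38 and 76 times in SHMT2 HKO mice, or 0.514, 0.301 and 0.287 against 1.99, 1.92 and 2.99 CPM. Every SHMT2 HKO liver was well above the highest control, and the mean rose 6.16-fold (log2 fold change 2.62, SE 0.39, adjusted p = 0.00283). *Tnfrsf11a*, which encodes RANK, the signalling receptor of RANK ligand on osteoclast precursors and myeloid cells, was at 7.49, 6.32 and 6.03 CPM in SHMT2 fl/fl mice and 1.27, 2.48 and 4.37 CPM in SHMT2 HKO mice. It was 2.43-fold lower without overlap (log2 fold change -1.28, SE 0.39, adjusted p = 0.0396), a call lost without any 1 of the SHMT2 fl/fl mice or without SHMT2 HKO mouse 2 (adjusted p = 0.0925 to 0.124). Per kb of exon, *Tnfrsf11a* was above *Tnfrsf11b* in SHMT2 fl/fl livers, at 1.10 ± 0.129 against 0.130 ± 0.0451 CPM per kb (SD, n = 3). In SHMT2 HKO livers its mean was below that of *Tnfrsf11b*, at 0.452 ± 0.261 against 0.817 ± 0.212. The ranges there overlapped, at 0.213 to 0.730 and 0.683 to 1.06 CPM per kb, though *Tnfrsf11b* was the higher in each SHMT2 HKO mouse. The RANK ligand gene *Tnfsf11* had between 0 and 2 counts in each library.

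*Tnfsf12*, which encodes TWEAK, a ligand that acts on liver progenitor cells and fibroblasts through Fn14, was at 19.6, 21.4 and 23.0 CPM against 14.6, 12.1 and 15.0 CPM. The groups did not overlap, and the level was 1.54-fold lower (log2 fold change -0.62, SE 0.14, adjusted p = 0.0127). The call was lost without SHMT2 fl/fl mouse 3 (adjusted p = 0.0649) and with ERCC scaling (0.0751). *Tnfrsf12a* (Fn14), which is induced in injured tissue, was at 31.3, 33.0 and 37.2 CPM against 13.7, 15.5 and 32.0 CPM. SHMT2 HKO mouse 3 lay inside the control range and the other SHMT2 HKO mice well below it. The log2 fold change was -0.73 (SE 0.30, adjusted p = 0.104) with this mouse and -1.23 (adjusted p = 0.000867) without it.

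*Bex3* was counted 303, 289 and 350 times in SHMT2 fl/fl and 125, 59 and 70 times in SHMT2 HKO mice, 2.47-fold lower without overlap (log2 fold change -1.31, SE 0.29, adjusted p = 0.0123). The orphan receptor gene *Tnfrsf19* (TROY) was at 20 ± 2.12 and 12.9 ± 4.56 CPM (SD, n = 3) without overlap, and was not called (log2 fold change -0.62, adjusted p = 0.0920). *Eda2r*, a receptor of ectodysplasin, ranged from 1.47 to 4.26 CPM in SHMT2 fl/fl and from 0.509 to 3.74 CPM in SHMT2 HKO mice, with overlapping groups (log2 fold change -0.56, adjusted p = 0.559, and -1.53 and 0.102 without SHMT2 HKO mouse 3).

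Within the SHMT2 HKO group the decrease was not even. SHMT2 HKO mouse 3 was nearest to the controls in 9 of the 14 members called lower (64.3%), mouse 1 in 3 and mouse 2 in 2, beside 61.0% for mouse 3 over the 2651 genes called lower. Among these 14 the highest SHMT2 HKO value was 5.26 times the lowest for *Tnfrsf10b*, 3.63 times for *Cd27* and 3.43 times for *Tnfrsf11a*, but 1.09 times for *Tnfrsf1b* and 1.23 times for *Cd40*.

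**Figure D3:**
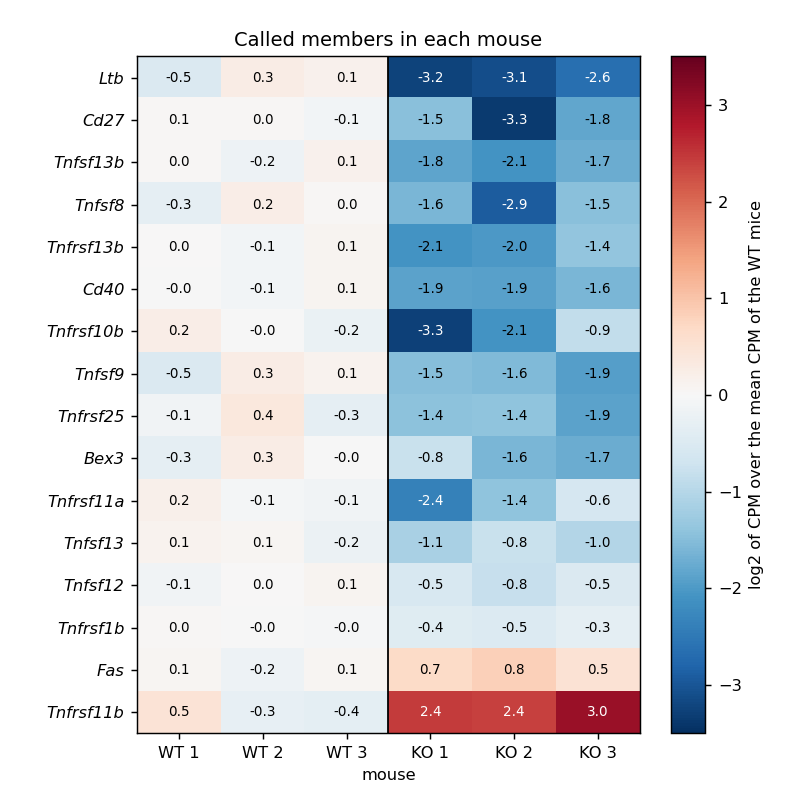
Log2 of the CPM of each called member (rows) in each mouse (columns) over the mean CPM of the SHMT2 fl/fl mice, as colour. The 14 lower members are below the control mean in all 3 SHMT2 HKO mice and the 2 higher members above it in all 3, with paler cells in SHMT2 HKO mouse 3 for *Tnfrsf10b* and *Tnfrsf11a*.

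The members formed 28 known ligand and receptor pairs, of which 15 had both genes tested and 13 did not. Both genes were called lower in 2 of the 15, BAFF with TACI and APRIL with TACI. In 4 pairs the ligand was called lower and the receptor not called, namely *Ltb* with *Ltbr*, *Tnfsf9* with *Tnfrsf9*, *Tnfsf12* with *Tnfrsf12a* and *Tnfsf13b* with *Tnfrsf13c*. In 2 pairs the receptor was called lower and the ligand not called, *Tnf* with *Tnfrsf1b* and *Tnfsf10* with *Tnfrsf10b*. The receptor was higher with the ligand not called in *Fasl* with *Fas* and *Tnfsf10* with *Tnfrsf11b*. In 5 further pairs a receptor called lower belonged to a ligand too low to test. Pairs share genes and were counted without a test, and a gene not called is not shown to be unchanged.

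The 9 members too low to test were 7 ligands and 2 receptors. Summed over the group, *Cd40lg*, *Lta*, *Tnfsf18*, *Cd70*, *Tnfsf4* and *Tnfrsf17* had more counts in the SHMT2 fl/fl libraries, which were also deeper in total, and *Tnfsf15*, *Tnfsf11* and *Tnfrsf8* had more in the SHMT2 HKO libraries. *Cd70*, *Tnfsf4* and *Tnfrsf17* were at 0 in all SHMT2 HKO libraries. A count of 3, the limit that a count of 0 allows, was 0.118 to 0.152 CPM in these libraries. *Cd40lg* was the farthest apart, at 0.416, 0.188 and 0.130 CPM in SHMT2 fl/fl mice against 0, 0.0506 and 0.0394 CPM, without overlap. In the edgeR fit without a filter on counts none of the 9 was called, with *Cd40lg* at an adjusted p of 0.0812 (unadjusted p = 0.0140, the 1 member of the 9 under 0.05) and the others at 0.471 to 0.891.

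**Figure D4:**
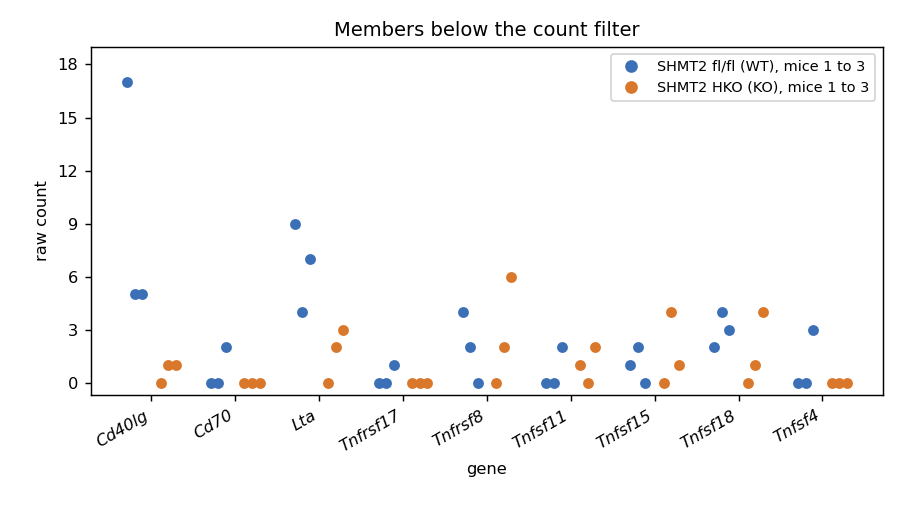
Raw counts of the 9 members below the count filter in each of the 6 libraries (y axis), with SHMT2 fl/fl and SHMT2 HKO mice in different colours. Only *Cd40lg* exceeds 10 counts in any library, with 17 in 1 SHMT2 fl/fl mouse.

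Neighbouring members did not always share a call. The members lie in 9 clusters of neighbours no more than 100 kb apart and as single genes. On chromosome 6, *Cd27* fell while *Ltbr* and *Tnfrsf1a*, within the same 129.9 kb (chr6:125232622-125362484), were not called. On chromosome 17, *Tnfsf9* fell while *Tnfsf14*, within the same 88.9 kb, was not called. *Tnfsf13* and *Tnfsf12*, side by side on chromosome 11, both fell, with the shared exons named above.

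Genes that carry the signal inside the cell were counted in lists, to be read beside the 29% of all genes called. Of 14 NF-kB kinases, subunits and inhibitors, 5 fell and none rose at the adjusted threshold of edgeR (1 higher at an unadjusted p under 0.05, 1 with DESeq2 and 0 with limma-voom), 35.7% called, with a median log2 fold change of -0.37. The 5 were *Relb* at 25.4 ± 2.11 against 7.79 ± 3.83 CPM (SD, n = 3, log2 fold change -1.70, adjusted p = 0.00665), *Nfkbie* (-1.45, 0.00197), *Map3k14* (-1.19, 0.00386), *Nfkb2* (-1.02, 0.0126) and *Nfkb1* (-0.60, 0.0369). *Map3k14* encodes NIK, the kinase of the non-canonical pathway used by LTBR, CD40 and the BAFF receptor, whose end products are p52 from *Nfkb2* and RelB, and *Nfkbie* encodes an inhibitor of NF-kB. *Rela*, the gene of the canonical subunit p65, was not called (-0.11, 0.529). *Chuk*, a kinase gene of the list, was higher without overlap of the groups and was not called either (0.60, 0.0587). Whether the canonical and non-canonical pathways differed was not tested. Of 30 genes of death receptor and TRAF signalling, 3 fell and 3 rose, 20% called and so below the share over all genes, with a median of 0.10. *Traf1*, an adaptor that is itself an NF-kB target (-1.53, adjusted p = 0.00380), *Tab1*, a partner of the kinase TAK1 (-0.94, 0.00716), and *Birc2*, which encodes the ubiquitin ligase cIAP1 (-0.73, 0.0181), fell. Genes that rose included *Bid*, whose BH3 protein links Fas to mitochondria (0.50, 0.0320), and *Casp8*, which encodes an initiator caspase (0.48, 0.0294). With ERCC scaling 3 genes of this list were called and without TMM scaling 11, instead of 6.

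Of 14 NF-kB target genes 11 were tested, 2 fell and 1 rose, 27.3% called and so near the share over all genes, with a median of -0.27. The T cell and NK cell chemokine *Ccl5* was at 7.33 ± 0.136 against 1.5 ± 0.348 CPM (SD, n = 3, log2 fold change -2.28, adjusted p = 0.000943), the adhesion molecule *Icam1* fell (-0.89, 0.00766), and *Sod2*, the mitochondrial superoxide dismutase, rose (0.81, 0.00606). None of the 4 genes of the lymphotoxin beta receptor list, *Ccl19*, *Ccl21a*, *Cxcl13* and *Madcam1*, passed the count filter. *Cxcl13*, which encodes a B cell chemokine, was at 0.0489, 0.0376 and 0.0522 CPM in SHMT2 fl/fl mice, under the floor of 3 counts, and at 0.552, 0.861 and 0.315 CPM in SHMT2 HKO mice. It was higher in every SHMT2 HKO mouse, the direction opposite to *Ltb*, and was called without the filter (edgeR adjusted p = 0.00439). In the same fit *Ccl19* (-1.66, adjusted p = 0.184) and *Madcam1* (-1.10, adjusted p = 0.612) had the direction of *Ltb* and were not called. *Ccl21a* was at 0 CPM in every mouse. *Ccl20*, an NF-kB target below the filter, was at 0 in all SHMT2 HKO mice and at 0.373 ± 0.104 CPM in SHMT2 fl/fl mice (SD, n = 3). Like *Cxcl13*, it was called without the filter (edgeR adjusted p = 0.00262). Of 5 genes of ligand and receptor shedding 2 fell, with a median of -0.41. They were *Timp3*, an inhibitor of the TNF-releasing protease ADAM17 (91.9 against 29.4 CPM, log2 fold change -1.64, adjusted p = 0.00344), and *Rhbdf1*, which encodes iRhom1, a cofactor of ADAM17 (-1.05, 0.00752), while *Adam17* itself was not called (-0.17, 0.449). Of 5 other genes of the superfamily 4 were tested, with a median of -0.75, and the receptor gene *Relt* fell (2.08 ± 0.144 against 0.695 ± 0.133 CPM, log2 fold change -1.58, adjusted p = 0.00699). All of these medians stand beside 0.027 over all genes tested.

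Markers of several cell types that make these ligands and receptors moved in the same livers. All 6 T cell markers fell (median log2 fold change -2.26), with a summed level of 15.2 to 19.6 CPM in SHMT2 fl/fl and 2.59 to 4.76 CPM in SHMT2 HKO livers. *Ltb*, *Cd27*, *Tnfrsf25* and *Fasl* had the same direction. The NK cell, dendritic cell, lipid-associated macrophage and cholangiocyte sums given below had it too, and the cell source of these genes was not tested. None of the 6 B cell markers was called by edgeR, DESeq2 or limma-voom (1 lower at an unadjusted p under 0.05 in edgeR), and their median was -0.74, with sums of 5.92 to 7.19 against 2.97 to 5.27 CPM that did not overlap, in the same direction as *Tnfrsf13b* and *Cd40*. Of 4 NK cell markers 1 fell (2.45 to 3.72 against 0.679 to 1.61 CPM), and of 5 dendritic cell markers 3 fell (15.6 to 15.9 against 5.90 to 11.6 CPM). Lipid-associated macrophage markers fell in 3 of 4 (363 to 451 against 100.1 to 193 CPM), while of 6 macrophage and Kupffer cell markers *Cd68* and *Csf1r* fell and *Clec4f* and *Vsig4* rose (173 to 221 against 207 to 284 CPM).

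All 5 cholangiocyte markers fell (median log2 fold change -2.97), with sums of 142 to 263 against 24.5 to 33.0 CPM. Of 6 stellate cell and fibroblast markers 3 fell and 1 rose (726 to 832 against 246 to 579 CPM). Endothelial markers rose in 2 of 6 (160.4 to 185 against 227 to 266 CPM) and hepatocyte markers in 2 of 6 (51726 to 62903 against 63792 to 94191 CPM). Not every gene of these lists had a positive log2 fold change. *Pecam1* and *Cdh5* were both at -0.24 and the hepatocyte gene *Tat* at -0.66, none of them called. *Alb*, the largest part of the hepatocyte sum, had overlapping groups and was not called (adjusted p = 0.132). Of 4 plasma cell markers 1 fell and 1 rose (7.73 to 15.9 against 6.89 to 20.3 CPM), and of 5 neutrophil markers 3 were tested and 1 fell (7.34 to 11.5 against 4.10 to 7.20 CPM). No marker of any list was at 0 in all 6 libraries. The part of these cell types in the changes of the family was not tested.

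**Figure D5:**
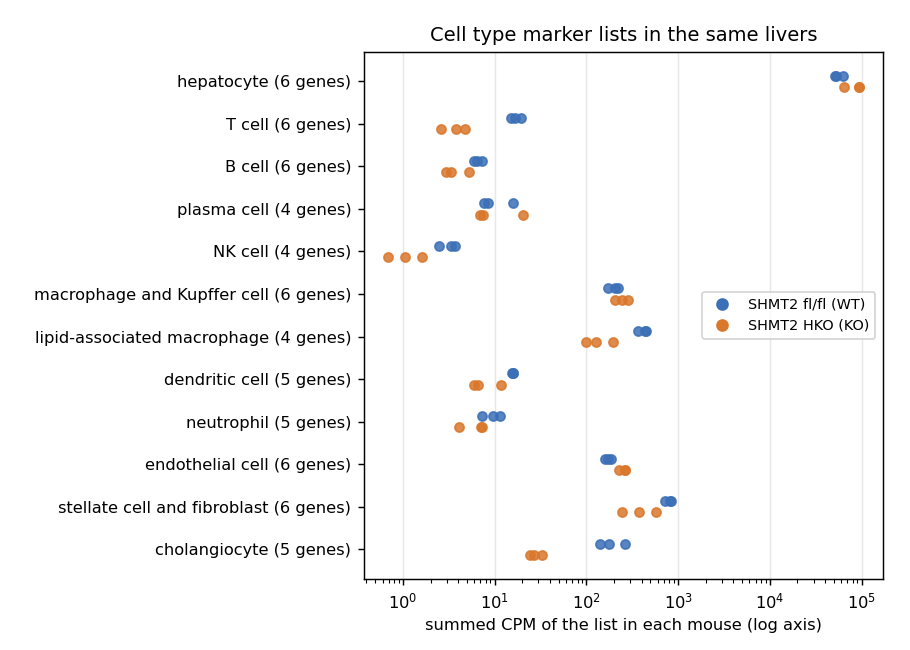
Summed CPM of each cell type marker list in each mouse (log axis), SHMT2 fl/fl and SHMT2 HKO in different colours. The T cell, B cell, NK cell, lipid-associated macrophage, dendritic cell, neutrophil, stellate cell and cholangiocyte sums do not overlap between genotypes and are lower in SHMT2 HKO livers, and the hepatocyte and endothelial sums are higher.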

How the data were processed

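Liver RNA of 3 SHMT2 fl/fl and 3 SHMT2 HKO mice on the AMLN diet was analysed, grouped by the deposited labels. The authors built the libraries with a NEBNext Ultra kit and sequenced read pairs. Per the submitters' processing notes, reads were trimmed with Trimmomatic 0.36, aligned with STAR 2.5.2b to GRCm38 and counted with featureCounts of Subread 1.5.2. The deposited values are these raw counts per gene, without normalization. The use of strand and of reads over overlapping genes is not given in the sources used here, so genes with shared exons are uncertain. Besides *Tnfsf12* and *Tnfsf13*, these members were *Tnfrsf18* (414 shared exon bases), *Tnfsf9* (192), *Tnfrsf23* (164), *Cd27* (129) and *Tnfrsf26* (107). The 92 ERCC rows were left out of library sizes, and the 345 gene IDs without a symbol held 0.0416% of counts.

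Genes were filtered with filterByExpr, scaled by TMM and tested for genotype with the quasi-likelihood F test of edgeR 4.0.16 in R 4.3.3 (two-sided, robust), with Benjamini-Hochberg adjustment over 16089 genes. Every adjusted p is from this test unless another tool is named, and a call is an adjusted p under 0.05. CPM use TMM-scaled library sizes, and CPM per kb the union exon length of GENCODE M21. The labels do not say that samples came from separate cages or litters, and p-values measure only the spread between these samples. The SDs and SEs given include the spread between these samples, whereas the floors cover counting error only.

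The members and lists were chosen with earlier results of these data known. Values are given in full for members called by edgeR, for *Tnf*, *Tnfrsf1a*, *Tnfrsf1b*, *Fas* and *Fasl*, and for the direct partners of called members. For each pathway list this covers up to the 5 called genes with the largest change (*Casp8*, *Rela*, *Chuk*, *Adam17*, *Cxcl13*, *Ccl19*, *Madcam1* and *Ccl20* were added after their values were seen). Of the genes this rule names, 1 is not reported here. Alternatives were DESeq2 1.42.0, limma-voom (limma 3.58.1), no TMM, upper-quartile and ERCC scaling, other filters, dispersions without robust estimation, a replicate block and leaving out each mouse. Promoter windows are from RefSeq, GRCm38.p6. On simulated counts, 164 of 193 tested genes changed 4-fold were recovered (85.0%) among 15688 genes, and 17 of 181 calls were false (9.39%). This share of false calls was above the 0.05 set by the adjusted p. Few genes were changed there, evenly up and down, whereas 29% of genes were called in the data. The simulation therefore did not test the scaling.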

Additional observations from a re-analysis of the deposited data

How the results depend on the processing

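The number of members called lower, 14, was 13 to 15 with DESeq2, limma-voom, upper-quartile or ERCC scaling, non-robust dispersions or no filter, and 10 with at least 10 counts required in every sample. It was 23 without TMM and 6 to 16 when 1 mouse was left out. Members called higher, 2, were 1 without TMM, 1 with ERCC scaling and 1 with at least 10 counts in every sample, where *Tnfrsf11b* is not tested. Over all genes, 2012 higher became 539 without TMM and 107 with ERCC scaling, and 805 to 2521 with 1 mouse left out, while 2651 lower became 4923 without TMM and 1621 to 3076 with 1 mouse left out. The median log2 fold change of all genes was 0.027, but -0.40 without TMM and -0.69 with ERCC scaling, so directions are relative to the scaling. Accordingly *Fas* turned to -0.096 with ERCC scaling and *Ltbr* to -0.15 without TMM and -0.49 with ERCC scaling. With 1 mouse left out, *Tnfrsf1a* ranged from -0.19 to 0.099 (above 0 without SHMT2 fl/fl mouse 3 or SHMT2 HKO mouse 2 or 3) and *Tnfrsf9* from -0.81 (without SHMT2 HKO mouse 1) to 2.58. The cause of the other changes was not tested.

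Lists with 1, 6, 3, 0 and 2 called genes moved as follows. Other superfamily genes had 2 without TMM, 2 with upper-quartile, 2 with ERCC scaling and 2 with limma-voom, and 1 to 2 with 1 mouse left out. Death receptor and TRAF genes had 11 without TMM, 3 with ERCC scaling and 3 to 7 with 1 mouse left out. NF-kB targets had 5 without TMM and 3 to 5 with 1 mouse left out. The lymphotoxin beta receptor list had 1 (*Cxcl13*, higher) without the filter and 0 to 1 with 1 mouse left out, and shedding genes 2 to 4. Over 24 named members and 15 alternative fits there were 351 results, 1 per member and fit in which it was tested. Of these, 295 kept direction and side of the threshold, 39 lost and 10 gained the call, and 7 changed sign. *Shmt2* stayed called, between -2.82 and -1.92.

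Replicate numbers did not pair the mice (correlations of same-numbered deviations -0.046, 0.013 and -0.077). Not every sample correlated best with its own number. With the replicate number as a block, 9 members were called lower and 2 higher.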
